A study of Mus musculus with 2 samples.

Results

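Kallikreins are secreted serine proteases, and the Spink, serpin B and cystatin families inhibit serine or cysteine proteases. The genes of these families were picked from the protein-coding genes by symbol: Klk, Spink, Serpinb or Cst followed by a digit, and any symbol starting with Stfa or Csta. The rule found 78 of 21474 protein-coding genes, of which 26 are Klk genes, 12 are Spink genes, 26 are Serpinb genes, 9 are Cst genes, and 5 are stefin A genes (4 Stfa genes and Csta1). The rule uses names only and no measured value. Levels come from total RNA-seq of whole stomachs of 2 newborn mouse pups of strain B6NCrl, taken at postnatal day 0 and born to the same dam, with no treatment and with sex not collected. There is a single group, with 1 library per pup, made from 10 ng of RNA above 200 nucleotides with spike-in controls added. The pups carry the replicate numbers 2 and 1 in the labels. Levels are given as TPM, a transcript's share of the library, which is scaled for gene length and for the library total, so levels of different genes can be set side by side. The deposited tables give a 95% credibility interval for each TPM, and means are given with the SD over the pups (n = 2).

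The mouse stomach has a squamous forestomach, lined by a layered epithelium that sheds cornified cells, and a glandular part with mucous, chief and parietal cells. In squamous epithelium, kallikreins cut the desmosomal proteins that hold the outer cells together, and Spink5 encodes the secreted inhibitor LEKTI, which restrains them. Serpin B proteins are mostly intracellular and trap their protease with an exposed loop that acts as bait. Cystatins and stefins are small proteins that block papain-like cysteine proteases such as the lysosomal cathepsins.

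Depth came to 49983574 expected counts for pup 2, against 51524479 for pup 1. Markers of squamous epithelium were detected for 18 of 18 genes, led by Krtdap, Cnfn and Krt4, and their summed level was 30577 TPM in pup 2 and 28743 TPM in pup 1. Markers of the glandular surface were detected for 9 of 9 genes, led by Tff1, Gkn2 and Gkn1, with sums of 24750 TPM in pup 2 and 24641 TPM in pup 1. All 5 chief cell genes (led by Cym, Pga5 and Pgc) and all 5 parietal cell genes (led by Atp4b, Atp4a and Clic6) were detected too. Smooth muscle genes summed to 6780 TPM in pup 2 and 8426 TPM in pup 1, and 6 of 6 were lower in pup 2. Of 15 genes of pancreatic enzymes, 13 were detected, at a summed 89.0 TPM in pup 2 and 123 TPM in pup 1. Of 7 salivary gland genes only Amy1 was detected, and Smr3a, Prol1 and Dcpp1 were at 0 in both pups. Since the tissue was taken whole, fewer cells of a type and less RNA per cell cannot be told apart for any gene below.

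With detection set at 1 TPM or more in each pup, 37 of the 78 members (47.4%) were detected, beside 61.2% of all protein-coding genes. The members together made up 0.309% of the summed TPM of protein-coding genes in pup 2 and 0.296% in pup 1. Detection ran from 3 of 9 Cst genes through 5 of 12 Spink genes, 11 of 26 Klk genes and 14 of 26 Serpinb genes to 4 of 5 stefin A genes. Each family was carried by a few genes. The median over all 78 members was 0.958 TPM, beside 3.60 TPM over all protein-coding genes, while the 37 detected members had a median of 35.6 TPM, beside 13.1 TPM over the 13138 detected protein-coding genes. No count was assigned to 18 members in either pup. A floor of 3 counts, set here for a count of 0, would correspond to between 0.0398 and 0.475 TPM for these genes. It is a chosen limit and not an absolute ceiling. Such floors cover counting error only, since amplified reads are not independent molecules.

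**Figure D1:**
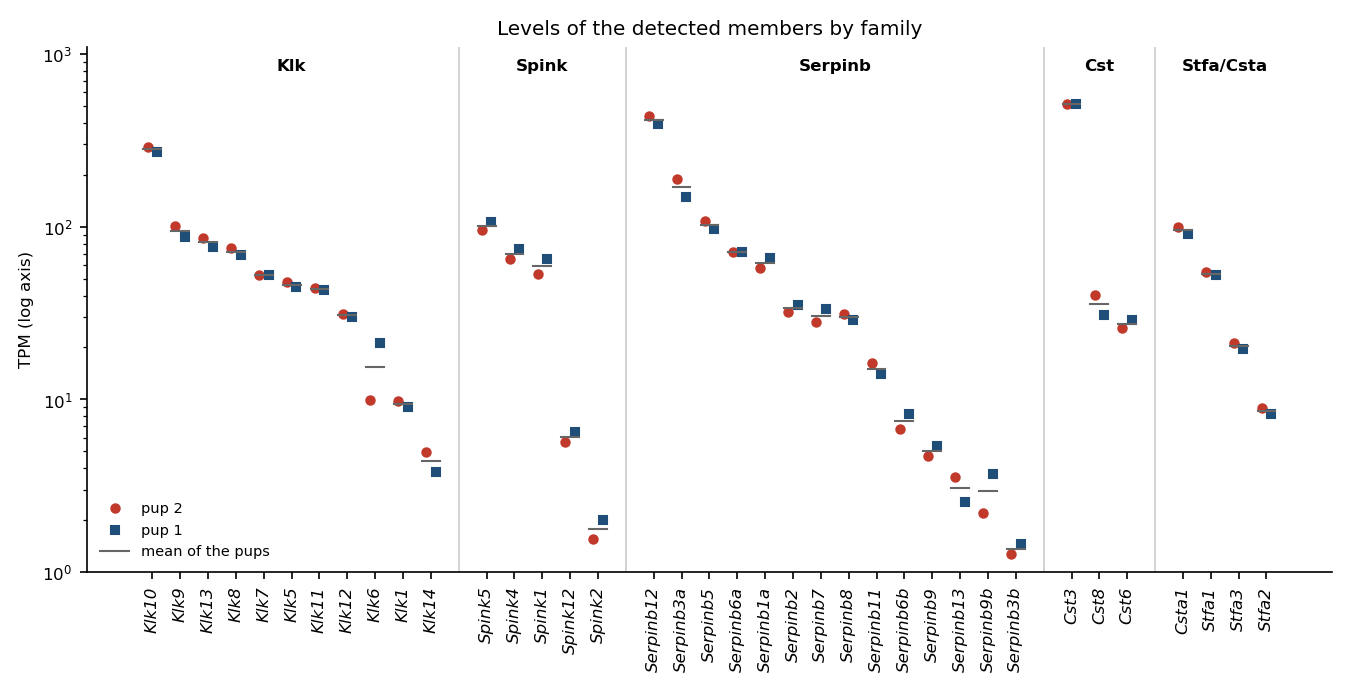
TPM on a log axis of the 37 detected members, grouped by family and ordered by level; red circles are pup 2, blue squares are pup 1 and grey bars are the mean of the pups. Cst3 and Serpinb12 stand highest at 512 and 417 TPM on average, and Klk6 shows the widest gap between the pups.

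Among the kallikreins, a run of neighbouring genes was on and the rest of the cluster was near 0. The 10 genes from Klk14 to Klk5 lie next to each other on the plus strand at chr7:43690418-43851181 (GRCm38/mm10), and 10 of 10 were detected, with a summed level of 744 TPM in pup 2 and 701 TPM in pup 1. Klk4, whose protease works in forming tooth enamel, and Klk15 follow, with 1 expected count in pup 2 and 1 in pup 1 for the pair. Then come 13 Klk1b genes over 270 kb, a group that expanded in rodents and is known from the salivary gland, and none was above 0.035 TPM on average. All 13 together came to 3 expected counts in pup 2, against 5.17 in pup 1. At the far end lies Klk1, which encodes the tissue kallikrein that releases kinins from kininogen, at 9.85 TPM in pup 2 and 9.02 TPM in pup 1. Klk1 and the Klk1b genes are close copies, but only 5.09% of the 100-base windows of Klk1 occur in a Klk1b transcript.

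**Figure D2:**
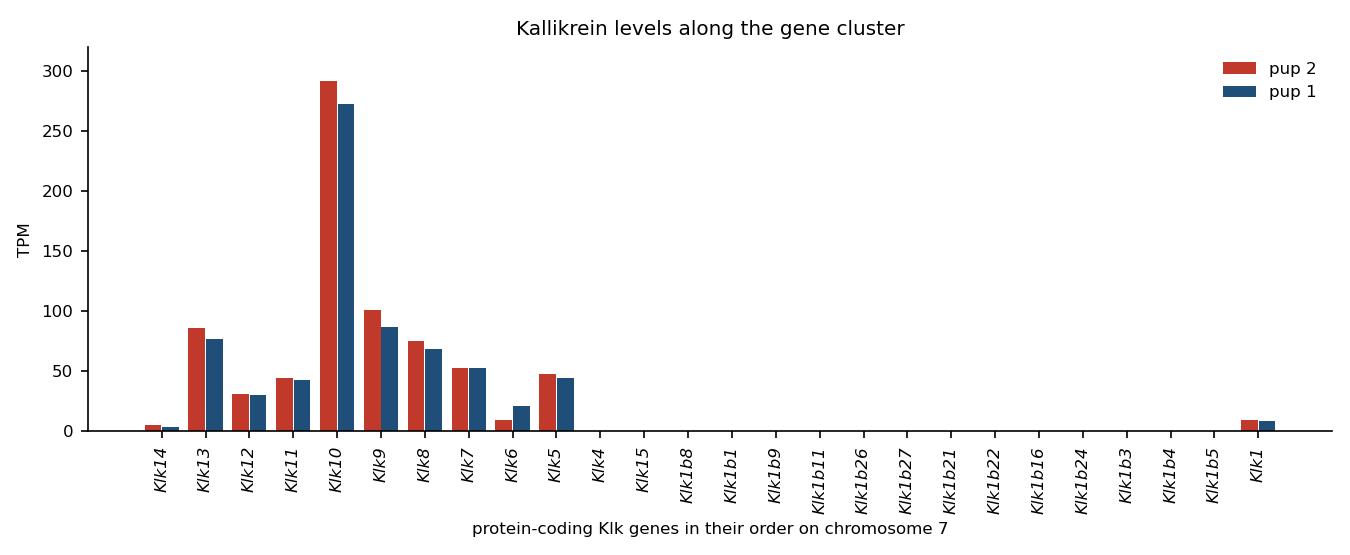
TPM of the 26 protein-coding Klk genes in their order on chromosome 7; red bars are pup 2 and blue bars are pup 1. Bars from Klk14 to Klk5 sum to 744 TPM in pup 2 and 701 TPM in pup 1, the Klk4 to Klk1b5 stretch is flat at 0, and Klk1 rises at the end to 9.85 TPM in pup 2 and 9.02 TPM in pup 1.

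The part of the kallikrein gene that sets which bonds the protease cuts differs among the detected members. The stretches below run in coding sense from the codon at the base of the specificity pocket, in capitals, to the codons around the catalytic serine. They come from the GENCODE transcripts on GRCm38, plus strand, and each spans a splice junction, so the letters are not contiguous in the genome. They were chosen to show the highest kallikrein, the proteases best known from shedding skin, and the pocket codons that differ.
Klk10: GACtcttgccagagtgactccggtggcccc
Klk5: GACtcctgccagggtgattccggaggtcct
Klk6: GATtcctgtcagggtgattctggaggtccc
Klk7: AACacgtgcaatggtgactcaggggggccc
Klk9: GGCtcttgccagggtgactctgggggaccc
GAC or GAT, the codons for aspartate, which lets a protease cut after basic residues as trypsin does, stands there in 20 of the 26 Klk genes, 9 of them detected. Klk7 and Klk1b8 have a codon for asparagine, Klk9, Klk1b16 and Klk1b27 have one for glycine, and Klk1b4 has one for tyrosine. Of those 6 genes only Klk7, a protease with chymotrypsin-like cutting, and Klk9 were detected.

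Klk10 (chr7:43781035-43785410) was the highest kallikrein. It had 291.7 TPM in pup 2 and 272.9 TPM in pup 1, which was 38.7% of the summed Klk level in pup 2 and 38.4% in pup 1. It ranked 468th of the protein-coding genes by mean TPM. Klk9 followed at 101.0 TPM in pup 2 and 87.2 TPM in pup 1, and Klk13 at 85.8 TPM in pup 2 and 76.9 TPM in pup 1. The levels of these genes kept apart over the pups, as the lower value of each lay above the higher value of the next.

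The next kallikreins include the proteases best known from shedding skin. Klk8, also called neuropsin and known from skin and brain, had 75.1 TPM in pup 2 and 68.4 TPM in pup 1. Klk7, which cuts corneodesmosin in the outer skin, had 52.4 TPM in pup 2 and 52.7 TPM in pup 1. Klk5, which can activate pro-Klk7 and is the start of the skin kallikrein cascade, had 47.7 TPM in pup 2 and 44.8 TPM in pup 1. Klk11 stood at 44.4 TPM in pup 2 and 42.8 TPM in pup 1, and Klk12 at 31.3 TPM in pup 2 and 30.1 TPM in pup 1. Klk14, a further trypsin-like protease of the skin cascade, was the lowest of the run at 4.93 TPM in pup 2 and 3.82 TPM in pup 1. Exons of Klk14 and Klk8 overlap 2310002F09Rik, a gene on the opposite strand at 1.92 TPM in pup 2 and 1.30 TPM in pup 1, and whether the libraries kept strand is not stated, so reads in the shared bases cannot be told apart. No neighbours in the order of detected Klk levels had overlapping values over the pups.

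For 5 of the 11 detected kallikreins (45.5%) the intervals of the pups did not overlap. Over protein-coding genes at a mean TPM of at least 1 that share was 21.6%. Klk10, Klk9, Klk13 and Klk8 were higher in pup 2, with log2 ratios of 0.10, 0.21, 0.16 and 0.13, and Klk6 was lower by more than 2-fold. Klk6 (chr7:43824499-43832030), a trypsin-like protease known from brain and squamous epithelium, had 9.87 TPM in pup 2 and 21.2 TPM in pup 1, from 407 expected counts for pup 2 and 898 for pup 1. Its 95% intervals were 9.03 to 11.2 TPM in pup 2 and 19.8 to 22.7 TPM in pup 1, and the log2 ratio of pup 2 over pup 1 was -1.03. The neighbours on either side did not share it: Klk7 had a log2 ratio of -0.01 and Klk5 of 0.09. The transcript Klk6-202 made up most of the gene in both, with 92.8% in pup 2 and 97.0% in pup 1. Setting Klk6 aside, Klk7 also had a log2 ratio below 0, and the other 9 of 11 detected Klk genes were higher in pup 2, with a family median of 0.10. Over the 13339 protein-coding genes at that level, 7785 were higher in pup 2, with a median of 0.03. Among the marker lists, the squamous genes were higher in pup 2 for 16 of 18 with a median of 0.09, the parietal cell genes for 5 of 5 with a median of 0.29, and the chief cell genes for 5 of 5 with a median of 0.11. Their part in the Klk values was not tested.

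Genes of desmosomes and of other epithelial serine proteases were detected as well. Of 12 desmosome and corneodesmosome genes 11 were detected, with a median of 21.8 TPM in pup 2 and 20.1 TPM in pup 1. Jup, encoding plakoglobin, averaged 211 ± 15.4 TPM, Pkp3, a plakophilin, 110 ± 3.61 TPM, and Cdsn, which encodes the Klk5 and Klk7 substrate corneodesmosin, 105 ± 20.2 TPM. Cdsn had 119 TPM in pup 2 and 90.7 TPM in pup 1. The desmoglein and desmocollin genes of the list averaged from 0.02 TPM for Dsg1c, which was not detected, to 68.9 TPM for Dsc2. Of 14 genes of other epithelial serine proteases and their receptor, 13 were detected, led by Prss8 at 69.7 ± 4.86 TPM, its partner St14 (matriptase) at 50.7 ± 0.870 TPM and Prss27 at 37.7 ± 3.77 TPM. Klk10, Klk9, Klk13 and Klk8 each stood above Prss8 in both pups.

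**Figure D3:**
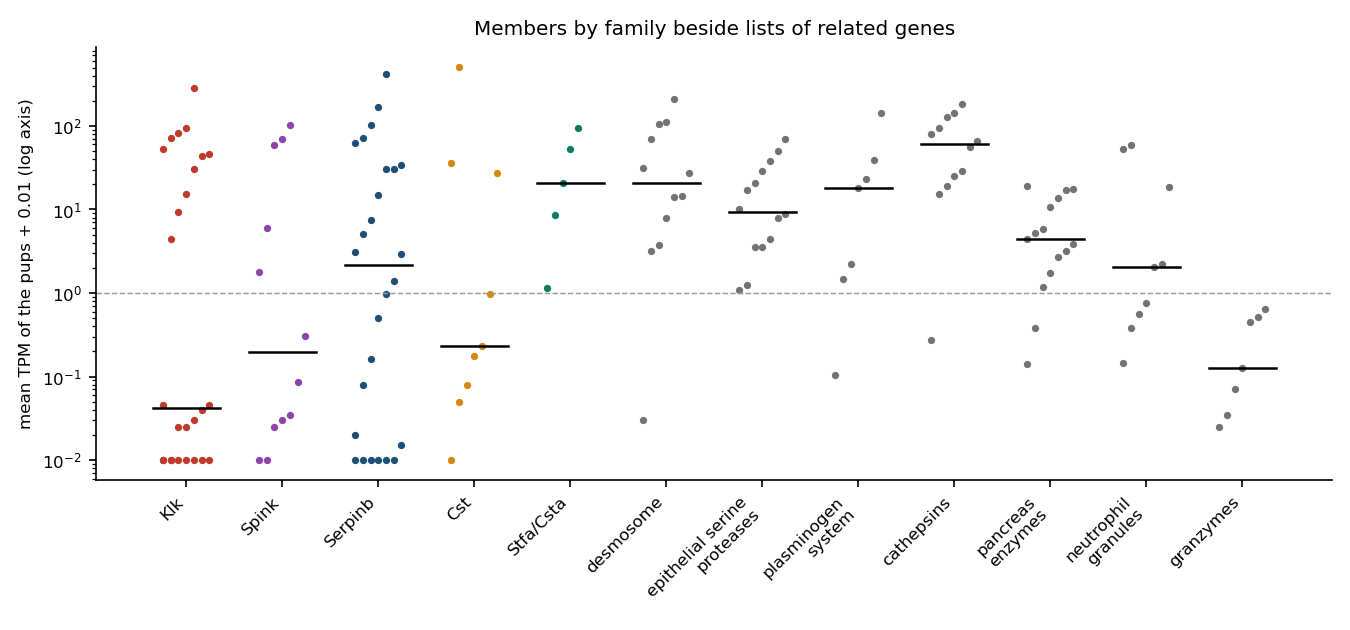
Mean TPM of the pups plus 0.01, on a log axis, for every member by family (coloured) and for lists of related genes (grey); a black bar is the median and the dashed line marks 1 TPM. The Klk genes split into a group at 4 TPM or more and a group below 0.1 TPM, the desmosome and cathepsin lists lie mostly above 1 TPM, and the 7 granzyme list genes lie below it.

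The Spink family, secreted inhibitors of serine proteases, was carried by 3 genes. Spink5 (chr18:43963235-44022501), the inhibitor of Klk5, Klk7 and Klk14 in skin, had 96.4 TPM in pup 2 and 107 TPM in pup 1. Spink4, known from goblet cells of the gut, had 64.8 TPM in pup 2 and 74.6 TPM in pup 1, and Spink1, the pancreatic trypsin inhibitor that also occurs in mucous cells, had 53.1 TPM in pup 2 and 65.1 TPM in pup 1. The values of Spink4 and Spink1 overlapped over the pups, so their order is not resolved. Spink12 had 5.65 TPM in pup 2 and 6.44 TPM in pup 1. Spink2, an acrosin inhibitor of the testis, had 1.56 TPM in pup 2 and 2.00 TPM in pup 1. The other 7 Spink genes were at 0.295 TPM or less on average.

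All 5 detected Spink genes were lower in pup 2, with a median log2 ratio of -0.20. For Spink5, Spink4 and Spink1 (60% of the 5) the intervals of the pups did not overlap. Among 13339 protein-coding genes at a mean TPM of at least 1, 5499 were lower in pup 2, and 21.6% had intervals apart. None of the Spink differences reached 1.5-fold. Pancreatic enzyme genes were lower in pup 2 for 12 of 13, with a median log2 ratio of -0.29, led by Ctrb1 at 17.2 TPM in pup 2 and 20.6 TPM in pup 1. Other lists went the other way. The squamous genes were higher in pup 2 for 16 of 18, with a median of 0.09. The glandular surface genes were higher for 6 of 9, with a median of 0.04. The part of these lists in the Spink values, and that of the smooth muscle genes, was not tested. Spink5 RNA exceeded that of each of these protease targets taken singly, not summed, in both pups. It stood at 2.02 times the TPM of Klk5 in pup 2 and 2.38 times in pup 1. Against Klk7 it stood at 1.84 times in pup 2 and 2.02 times in pup 1. These are ratios of RNA and not of protein.

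The serpin B genes lie in clusters on chromosomes 1 and 13, and the chromosome 1 cluster held most of the RNA. There, 9 of 11 genes were detected over 749 kb, with a sum of 849 TPM in pup 2 and 758 TPM in pup 1. On chromosome 13, 5 of 15 were detected over 1161 kb, with a sum of 144 TPM in pup 2 and 156 TPM in pup 1. The letters below, in coding sense from the GENCODE transcripts on GRCm38, show the loop that meets the protease in the detected members named here. Each stretch starts at the hinge, lies in a single exon, and has the 36 bases after the hinge, the variable bait region, in capitals.
Serpinb12: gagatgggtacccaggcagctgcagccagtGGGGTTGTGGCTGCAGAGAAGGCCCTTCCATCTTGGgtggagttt
Serpinb3a: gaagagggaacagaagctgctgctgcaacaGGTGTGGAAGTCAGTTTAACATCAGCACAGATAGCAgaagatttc
Serpinb3b: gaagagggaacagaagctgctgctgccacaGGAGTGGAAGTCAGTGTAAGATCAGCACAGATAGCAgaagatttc
Serpinb2: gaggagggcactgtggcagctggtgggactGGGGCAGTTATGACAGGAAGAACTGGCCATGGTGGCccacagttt
Serpinb1a: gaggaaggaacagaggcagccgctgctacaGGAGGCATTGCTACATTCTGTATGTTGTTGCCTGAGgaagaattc
Serpinb6a: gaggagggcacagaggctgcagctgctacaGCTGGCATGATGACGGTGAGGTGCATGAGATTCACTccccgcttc
Serpinb9: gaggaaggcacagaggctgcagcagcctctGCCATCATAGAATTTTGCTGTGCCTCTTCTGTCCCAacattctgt
Serpinb9b: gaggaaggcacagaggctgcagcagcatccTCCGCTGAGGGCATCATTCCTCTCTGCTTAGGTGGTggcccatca
They lie at chr1:106956639-106956713 for Serpinb12 (plus strand), at chr1:107046100-107046174 for Serpinb3a and chr1:107154453-107154527 for Serpinb3b (both minus), and at chr13:33015693-33015767 for Serpinb9 and chr13:33039796-33039870 for Serpinb9b (both plus). The hinge was searched as codons for glutamate, any residue, glycine, any 2 residues, alanine, any 3 residues, and serine or threonine, and 22 of 26 Serpinb genes had it. Serpinb5 had no match, and its protein maspin is known as a serpin that does not inhibit proteases. Serpinb3a and Serpinb3b shared 94.7% of these 75 bases and 92.9% of the whole coding sequence. Serpinb9 and Serpinb9b shared 50.7% of the loop stretch and 85.3% of the coding sequence. Loop stretches were compared letter by letter without gaps, and coding sequences were aligned with gaps. The loop and coding percentages are therefore unlike measures, and an inserted or lost codon lowers the loop value.

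Serpinb12 (chr1:106934449-106957080), an inhibitor of trypsin-like proteases, was the highest serpin B. It had 439 TPM in pup 2 and 396 TPM in pup 1, which was 44.2% of the family's summed level in pup 2 and 43.2% in pup 1. Serpinb3a, related to the human squamous cell carcinoma antigens, had 190 TPM in pup 2 and 149 TPM in pup 1. Its near copy Serpinb3b had 1.28 TPM in pup 2 and 1.45 TPM in pup 1, and Serpinb3c and Serpinb3d were not detected. Serpinb3a stood 148 times above Serpinb3b in pup 2 and 103 times in pup 1, and no 100-base window of Serpinb3a was shared with Serpinb3b, although 6.53% were shared with the pseudogene Gm8080. Serpinb5 had 108 TPM in pup 2 and 97.5 TPM in pup 1.

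The remaining chromosome 1 genes were lower. Serpinb2 encodes plasminogen activator inhibitor type 2, and it had 31.9 TPM in pup 2 and 35.4 TPM in pup 1. Serpinb7, known from keratinocytes, had 28.0 TPM in pup 2 and 33.3 TPM in pup 1, and Serpinb8, which can inhibit furin, 31.5 TPM in pup 2 and 28.9 TPM in pup 1. The values of Serpinb2 overlapped those of Serpinb7, and those of Serpinb7 overlapped those of Serpinb8. Serpinb11, known as an inhibitor of trypsin in the mouse, had 16.2 TPM in pup 2 and 14.0 TPM in pup 1, and Serpinb13 had 3.55 TPM in pup 2 and 2.55 TPM in pup 1.

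On chromosome 13, the genes at the ends of the cluster were the highest. Serpinb6a, which inhibits cathepsin G and is needed for hearing, had 71.2 TPM in pup 2 and 71.5 TPM in pup 1. Serpinb1a, an inhibitor of neutrophil elastase, cathepsin G and proteinase 3, had 57.8 TPM in pup 2 and 66.3 TPM in pup 1. Serpinb6b had 6.70 TPM in pup 2 and 8.26 TPM in pup 1, and Serpinb9, the granzyme B inhibitor of killer cells, 4.69 TPM in pup 2 and 5.40 TPM in pup 1. The 10 members of this cluster that were not detected include Serpinb9c to Serpinb9g, most of which were at 0. Serpinb9f and Serpinb9g share 52.3% and 38.5% of their 100-base windows with other genes, so reads from them could be divided among copies. Besides each other, the genes that share windows with them include Gm11397 and Serpinb9e, which had no counts in either pup. Exons of Serpinb6a overlap Nqo2, Ripk1 and 1110046J04Rik on the opposite strand, which had between 2.20 and 11.1 TPM.

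**Figure D4:**
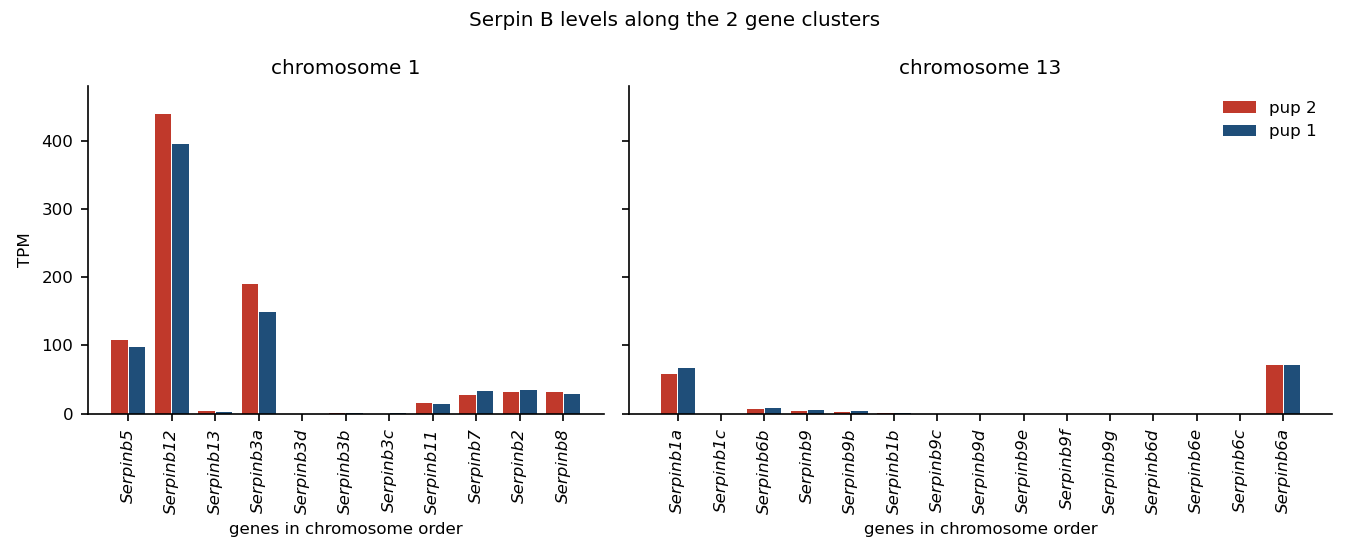
TPM of the 26 Serpinb genes in their order on chromosome 1 (left) and chromosome 13 (right), with the same axis; red bars are pup 2 and blue bars are pup 1. Serpinb12, Serpinb3a and Serpinb5 lead on chromosome 1, and on chromosome 13 the highest bars, Serpinb1a and Serpinb6a, stand at the ends.

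Serpinb9b was the serpin that differed most between the pups among those with enough counts. It had 2.20 TPM in pup 2 and 3.68 TPM in pup 1, from 276 expected counts for pup 2 and 480 for pup 1, with 95% intervals of 1.92 to 2.43 TPM in pup 2 and 3.31 to 3.96 TPM in pup 1. Its log2 ratio was -0.55 and its TPM in pup 2 was 0.598 of that in pup 1. It lies next to Serpinb9, whose intervals overlapped between the pups. Of the 14 detected serpin B genes, 6 were higher and 8 were lower in pup 2, with a median log2 ratio of -0.05. On chromosome 13, Serpinb1a, Serpinb6b, Serpinb9 and Serpinb9b had log2 ratios between -0.17 and -0.55, with overlapping intervals for Serpinb9, while Serpinb6a was level at -0.005. The smooth muscle genes were lower in pup 2 for 6 of 6, with a median of -0.37, and their part in these values was not tested.

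Lists of genes that include targets of these serpins were unevenly represented. Of 7 genes of granzymes and granule-associated proteins none was detected; Gzmm, the highest, averaged 0.625 TPM, Nkg7 0.505 TPM and Gzma 0.445 TPM. Of 9 neutrophil granule genes, 5 were detected, led by Ltf at 69.1 TPM in pup 2 and 49.0 TPM in pup 1, S100a9 at 48.6 TPM in pup 2 and 56.2 TPM in pup 1, and S100a8 at 16.2 TPM in pup 2 and 20.5 TPM in pup 1. Epithelia also express those 3 genes, and the protease genes of the list, Elane, Prtn3 and Ctsg, were each at or below 0.750 TPM on average. In the plasminogen system, 5 of 7 genes were detected, led by Plgrkt at 144 ± 1.48 TPM, Serpine2 at 39.0 ± 0.891 TPM and Plaur at 23.4 ± 0.834 TPM. The Serpinb2 target urokinase, Plau, was at 1.83 TPM in pup 2 and 2.64 TPM in pup 1. Plat, encoding tissue plasminogen activator, was at 16.4 TPM in pup 2 and 19.7 TPM in pup 1.

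The transcript tables gave 2 members whose most abundant transcript differed between the pups. Over members at 5 TPM or more with several transcripts, 15 of 17 had the same most abundant transcript in both pups, beside 93.7% of 7077 protein-coding genes. Serpinb2-201 made up 54.1% of the gene in pup 2 and 43.4% in pup 1, and Serpinb2-202 44.2% in pup 2 and 55.0% in pup 1. Serpinb6b-203 made up 54.1% in pup 2 and 42.3% in pup 1, and Serpinb6b-202 33.1% in pup 2 and 49.5% in pup 1. By share of TPM, which is scaled for length, Serpinb5 was led by Serpinb5-204, a short transcript of 654 bases, at 58.0% in pup 2 and 54.3% in pup 1. The 2572-base Serpinb5-201 was next at 38.9% in pup 2 and 42.0% in pup 1. By expected counts the order was reversed, with 4109 in pup 2 and 4182 in pup 1 for Serpinb5-201. Serpinb5-204 had 1376 in pup 2 and 1214 in pup 1. Serpinb2 shares 291 exon bases with the neighbouring Serpinb10, annotated as a polymorphic pseudogene.

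Motif letters were looked for in the promoters. The 250 bases before the RefSeq start (GRCm38.p6) were read for the 63 members in the promoter table, 30 of them detected, and searched on both strands for motifs chosen with the levels known. These were TGANTCA, the TATA box letters TATAAA, the GC box letters GGGCGG, and the longer AACCNGGTT known from grainyhead-like factors. Spink2 was the only Spink gene among the 63, so the percentages hardly cover that family. The detected genes Spink5, Spink4, Spink1, Spink12, Cst6 and Serpinb1a were not matched. TGANTCA, which contains the sites bound by AP-1 factors, occurred in 6 of the 30 detected members (20.0%), in 1 of the 33 not detected (3.03%) and in 7.82% of 27025 symbols in the table. All 6 detected members with it were serpins of chromosome 1: Serpinb5, Serpinb12, Serpinb11, Serpinb7, Serpinb2 and Serpinb8, which is 6 of the 10 genes of that cluster in the table and 6 of the 8 detected ones. Serpinb3a, Serpinb3b, Serpinb3c and Serpinb3d lacked it, and Serpinb13 was not matched. None of the 26 Klk promoters and none of 14 chromosome 13 Serpinb promoters held it. The letters of 4 are shown, with TGANTCA in capitals: the highest genes, the gene with 2 matches, and the gene whose match lies nearest to its start.
Serpinb12: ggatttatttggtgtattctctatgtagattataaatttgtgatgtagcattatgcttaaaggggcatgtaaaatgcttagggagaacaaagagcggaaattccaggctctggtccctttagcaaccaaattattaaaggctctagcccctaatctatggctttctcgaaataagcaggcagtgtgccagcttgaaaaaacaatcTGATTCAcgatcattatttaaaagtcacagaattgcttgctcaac
Serpinb5: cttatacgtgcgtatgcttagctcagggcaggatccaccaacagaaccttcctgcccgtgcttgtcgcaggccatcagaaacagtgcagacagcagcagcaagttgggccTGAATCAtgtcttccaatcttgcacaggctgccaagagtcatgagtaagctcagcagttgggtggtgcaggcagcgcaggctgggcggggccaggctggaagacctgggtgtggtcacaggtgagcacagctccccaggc
Serpinb11: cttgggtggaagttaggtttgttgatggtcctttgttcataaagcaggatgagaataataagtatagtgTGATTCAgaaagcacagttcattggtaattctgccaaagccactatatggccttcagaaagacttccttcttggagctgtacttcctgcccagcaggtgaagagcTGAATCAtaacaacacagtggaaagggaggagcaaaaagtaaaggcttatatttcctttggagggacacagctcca
Serpinb8: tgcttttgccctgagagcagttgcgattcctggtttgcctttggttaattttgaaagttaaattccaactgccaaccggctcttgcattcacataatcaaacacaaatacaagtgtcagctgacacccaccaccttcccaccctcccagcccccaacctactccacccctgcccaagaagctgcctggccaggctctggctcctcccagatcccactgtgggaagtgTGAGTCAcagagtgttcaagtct
All are on the plus strand, at chr1:106934199-106934448 for Serpinb12, chr1:106860925-106861174 for Serpinb5, chr1:107362064-107362313 for Serpinb11 and chr1:107589756-107590005 for Serpinb8. The stricter TGAGTCA or TGACTCA occurred in Serpinb7 and Serpinb8 alone among the detected members (6.67%), beside 5.16% of all symbols. TATAAA occurred in 16.7% of detected members, in 15.2% of those not detected and in 14.3% of all symbols. It was in 7 of the same 10 chromosome 1 Serpinb promoters, and the 5 detected members with it, Serpinb12, Serpinb3a, Serpinb2, Serpinb7 and Serpinb3b, are all in that cluster. GGGCGG was found in 26.7% of detected members, 6.06% of those not detected and 35.4% of all symbols. AACCNGGTT occurred in none of the members and in 0.278% of all symbols. A match is a description of letters, not evidence of binding.

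The cystatins were dominated by 1 gene. Cst3 (chr2:148871722-148875692, minus strand) encodes cystatin C, a secreted inhibitor made by most cells, and had 514 TPM in pup 2 and 511 TPM in pup 1. That was 88.4% of the summed Cst level in pup 2 and 89.3% in pup 1, and Cst3 was the highest of all 78 members, at rank 249 of the protein-coding genes. Cst8, a cystatin-related gene known from epididymis and testis, came next, with 40.2 TPM in pup 2 and 30.9 TPM in pup 1. Its intervals did not overlap and its log2 ratio was 0.37. A processed transcript, Cst8-203, carried 49.6% of it in pup 2 and 48.2% in pup 1, so about as much lay in the protein-coding Cst8-201 as outside it. Cst6, cystatin M/E, an inhibitor of legumain and cathepsin L in squamous epithelium, had 26.1 TPM in pup 2 and 28.8 TPM in pup 1. Cst7, cystatin F of immune cells, was at 0.200 TPM in pup 2 and 0.250 TPM in pup 1. The 4 stefin A genes that were detected are on chromosome 16, led by Csta1 (chr16:36119946-36131241) at 100.4 TPM in pup 2 and 90.4 TPM in pup 1. The 422-base Csta1-202 made up 81.6% of that TPM in pup 2 and 79.8% in pup 1. It had 1051 expected counts in pup 2 and 964 in pup 1, while the 2783-base Csta1-201 had 1970 and 2024.5. The level of Csta1, and so its lead, depends on how reads were divided between these transcripts. Stefin A is an intracellular cathepsin inhibitor and a component of the cornified envelope. Stfa1 had 54.4 TPM in pup 2 and 52.6 TPM in pup 1, Stfa3 21.3 TPM in pup 2 and 19.6 TPM in pup 1, and Stfa2 8.93 TPM in pup 2 and 8.21 TPM in pup 1. The 4 were higher in pup 2, with overlapping intervals for each. Stfa2l1 missed detection, with 0.720 TPM in pup 2 and 1.54 TPM in pup 1, from 9 expected counts for pup 2 and 20 for pup 1.

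The loop that enters the cleft of the cysteine protease is shown for the genes with the highest levels, in coding sense from the GENCODE transcripts on GRCm38 (minus strand except Stfa1), with the 5-codon motif in capitals. It was searched as codons for glutamine, any residue, valine, any residue and glycine. The Cst3 and Cst6 stretches span a splice junction, and those of Csta1 (chr16:36124977-36125021) and Stfa1 (chr16:36280520-36280564) lie in a single exon.
Cst3: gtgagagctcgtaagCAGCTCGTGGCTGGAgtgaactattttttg
Cst6: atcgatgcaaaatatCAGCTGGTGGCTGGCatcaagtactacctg
Csta1: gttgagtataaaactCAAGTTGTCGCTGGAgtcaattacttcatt
Stfa1: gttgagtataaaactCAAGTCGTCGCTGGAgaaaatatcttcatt
The motif was in 5 of 5 stefin A genes and in 4 of 9 Cst genes, namely Cst3, Cst6, Cst7 and Cst10. Cst8 was the only detected member of the cystatin families without it.

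Lysosomal protease genes were mostly detected. Of the 12 listed, 11 were detected, with a median of 60.1 TPM in pup 2 and 61.3 TPM in pup 1. The list includes Ctsa, a serine carboxypeptidase that cystatins do not target, and without it 10 of 11 were detected, with a median of 55.6 TPM in pup 2 and 56.4 TPM in pup 1. Ctsb averaged 181 ± 8.48 TPM, Ctsl 143 ± 2.51 TPM and Ctsh 127 ± 4.06 TPM, and Cst3 stood above each of them in both pups. Among inhibitors outside the families, 17 of 22 measured genes were detected, led by Slpi, the secretory leukocyte protease inhibitor, at 3748 ± 24.0 TPM. Cstb, encoding stefin B, averaged 567 ± 24.3 TPM and Spint2, a Kunitz-type inhibitor of matriptase and prostasin, 542 ± 31.4 TPM. Slpi alone exceeded the 2680 ± 79.1 TPM of the 78 members summed.

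At a mean TPM of at least 1, 38 members had a median log2 ratio of 0.05, with 21 higher and 17 lower in pup 2, beside a median of 0.03 over 13339 protein-coding genes. The TPM differed less than 1.5-fold for 35 of the 38 (92.1%), beside 97.3% of all. A gene was called different where the TPM differed at least 2-fold, the 95% intervals did not overlap and expected counts averaged 100 or more. Of 35 members with such a count, none was called higher in pup 2, beside 0.301% of 13951 genes, and Klk6 was called lower, beside 0.122%. At 1.5-fold, none was called higher, beside 1.08%, and Klk6 and Serpinb9b were called lower, beside 0.552%. The intervals alone did not overlap for 20 of 38 members (52.6%), beside 21.6% of protein-coding genes, at a median of 1351 expected counts for the members and 1277 for all genes. Those calls compare 2 libraries and have no replicate check, so no test was made. For 33 of the 78 members the TPM of a pup lay outside its own interval, as the interval belongs to the posterior mean and not to the TPM. Over all 21474 protein-coding genes this held for 5061. Most of the 33 had a TPM of 0 in that pup, below an interval that starts above 0. Only Serpinb12, Spink5 and Spink10 lay outside with a TPM above 0.

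**Figure D5:**
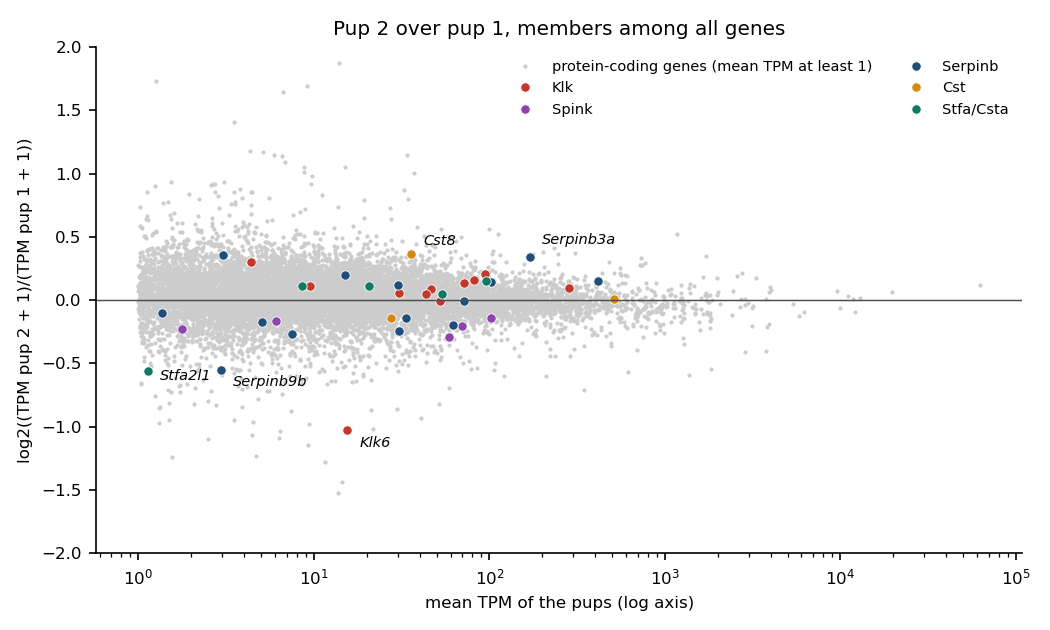
Log2 ratio of pup 2 over pup 1 (TPM + 1) against the mean TPM on a log axis, for protein-coding genes with a mean TPM of at least 1 (grey; 11 of 13339 lie beyond the axis) and for the members, coloured by family. Most members sit near 0, Klk6 lies at -1.03, and the Spink genes all lie below 0.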

How the data were processed

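Expected counts, deposited by the authors per gene, estimate reads and carry no scaling for depth. The TPM and FPKM values that the authors deposited are scaled for length and library total, and come with posterior means and 95% intervals (the column names are those RSEM writes). The isoform percent that the authors deposited is the share of a gene's TPM in a transcript. Per the labels, the build was mm10 with GENCODE release M4; the aligner and the strandedness are not given in the sources read here. GENCODE M21 supplied symbols, types and positions and matched 42462 of 43346 Ensembl genes by ID. Depth was 49983574 expected counts in pup 2 and 51524479 in pup 1, so that 3 counts equal 0.0600 CPM in pup 2 and 0.0582 CPM in pup 1.

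From these, sums, shares and log2((TPM of pup 2 + 1)/(TPM of pup 1 + 1)) were computed with Python 3.11.15, pandas 2.3.3 and numpy 2.4.6, and the sum of 1 understates differences of low genes. On simulated counts with Poisson noise only, the 2-fold calling rule called 50 of 50 genes set 3-fold higher and 0 of 13744 unchanged genes. It called 0 of 50 genes set 1.5-fold higher, which lie below its cut. The simulated intervals were Poisson intervals and not the deposited ones. The check therefore shows that the rule was applied as written, and not its error rate on these data. No test was made, as there is 1 library per pup. TMM factors (edgeR 4.0.16) and size factors (DESeq2 1.42.0), from counts rounded to whole numbers on 18513 genes with a mean count of at least 10, served as alternatives. The members and gene lists were chosen with earlier results of these data known. Genes named are the 5 highest detected of each family, those 1.5-fold apart with intervals apart and 100 counts, those at 5 TPM whose main transcript differs, a fixed set, and the 3 highest of each list. Others were named after their values were seen.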

Additional observations from a re-analysis of the deposited data

How the results depend on the processing

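Precision is limited by 2 littermates with 1 library each, so the SD rests on a single difference, and no comparison of conditions can be had. The number of detected members was 45 at 0.1 TPM, 31 at 5 TPM and 40 at 10 expected counts, and 38 to 39 with a pup left out. On FPKM, which is scaled to another total, the summed levels were 585 for Klk, 191 for Spink, 762 for Serpinb, 461 for Cst and 143 for the stefin A genes. Posterior mean TPM gave 569.8 for Cst, and with a pup left out the sums ran from 710 to 754 TPM for Klk, 222 to 255 for Spink, 915 to 993 for Serpinb, 572 to 581 for Cst and 172 to 186 for the stefin A genes. Members called lower in pup 2 were 2 at 1.5-fold, 0 at 3-fold and 0 when counts had to average 1000, which leaves 21 members and drops Klk6. Requiring only 10 counts on average, or taking Poisson intervals of TMM-scaled counts, gave 1. None was called higher under any of these 5. The median log2 ratio was 0.01 with TMM or DESeq2 scaling, 0 over all 60 members with a count, and 0.05 with a pseudocount of 0.1 or at 5 TPM. At 1 TPM, 19 of 21 members kept their main transcript. Posterior means changed 3 of the 32 named members by more than the SD, by 0.986 to 1.09 times over all 32. No paired analysis was possible because there is a single group.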

Other observations

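Relatives of the members that the symbol rule leaves out were also expressed. On chromosome 16, in the stretch of the stefin A genes, BC100530 had 235 TPM in pup 2 and 274.5 TPM in pup 1, above each of the named stefin A genes in both pups. Of its neighbours, BC117090 had 3.98 TPM in pup 2 and 3.30 TPM in pup 1, Gm5483 had 3.25 TPM in pup 2 and 2.31 TPM in pup 1, and 2010005H15Rik, which RefSeq names Csta2, had 1.32 TPM in pup 2 and 1.48 TPM in pup 1. Stfa1 shares 5.07% of its 100-base windows with BC100530, so a part of their reads could be divided between them.

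On chromosome 1, Serpinb10, annotated as a polymorphic pseudogene and so not a member, had 4.49 TPM in pup 2 and 6.37 TPM in pup 1, with intervals of 3.29 to 4.91 TPM in pup 2 and 5.18 to 6.86 TPM in pup 1. On chromosome 18, Gm94 lies between Spink1 and Spink5 and had 635.5 TPM in pup 2 and 554.7 TPM in pup 1, above each Spink gene. It is given as a neighbour by position, and whether it is related to the Spink genes was not examined. Spinkl, between Spink12 and Spink11, had 0.05 TPM in each pup. In the Klk cluster the pseudogene Klk1b7-ps held 1 expected count in pup 2 and 0 in pup 1.

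Among mast cell, macrophage and fibroblast marker genes, 6 of 8, 8 of 8 and 6 of 6 were detected, with median log2 ratios of 0.01, -0.01 and 0.01. Of 8 genes of skin and hair, 2 were detected, Krt77 at 4.58 TPM in pup 2 and 4.37 TPM in pup 1, and Flg2 at 1.64 TPM in pup 2 and 1.13 TPM in pup 1.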
